A study of Ipomoea batatas with 12 samples.

Results

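MAN2 is the symbol that the study's gene tables give to 2 sweetpotato loci, MSTRG.33887 and MSTRG.33886, and it stands for an endo-beta-mannanase. These 2 genes, of the 50592 listed in the deposited tables, were chosen by their IDs, and the study's tables list them for their rise with combined drought and heat and place MAN2 among the genes that changed with all 3 treatments. The differences of every treatment from the control are therefore given here as descriptions, without p-values. Where a fit called or did not call a copy against the control, nothing is read from it. The plants were of the cultivar Xuzishu 8 in hydroponic culture, and each of the 12 libraries, 3 in each of 4 groups, holds RNA of leaf and storage root mixed in equal parts over a series of time points. The groups were unstressed plants (CK), heat (HT), drought imposed by PEG6000 in the culture solution (DR), and drought and heat together (DH), and the CK plants stood in a growth chamber of their own, so that chamber and stress cannot be told apart. The labels do not say whether the pools of a group were made from different plants, and the p-values below therefore measure only the spread between these pools.

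Mannans are hemicelluloses of the plant cell wall with a backbone of mannose, or of mannose and glucose, in beta-1,4 linkage. Endo-beta-mannanases cut that backbone inside the chain, and in seeds such as those of tomato and Arabidopsis they are known for softening the endosperm wall during germination. The backbone is made by enzymes of the cellulose synthase-like A (CSLA) family from GDP-mannose, a sugar nucleotide that also feeds the synthesis of ascorbate. StringTie, the program that assembled the transcripts, gives MSTRG numbers to loci it assembles, and the 2 copies carry consecutive numbers. No other listed MSTRG locus lies within 3 numbers of either. That says little, since only 1529 MSTRG loci are listed and the nearest others have the numbers 33657 and 33919. Their genome positions were not analysed here, and near-identical copies in this polyploid can share reads.

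Libraries differed widely in how many transcripts they captured. Genes with an FPKM (fragments scaled for transcript length and for the fragments of the library) above 0 numbered from 13653 in DH replicate 2 (DH2) to 33410 in CK3, and HT2 was second lowest with 14425. The table of DR2 ends after 49073 genes, and the 1519 loci that follow in the shared order, both MAN2 copies among them, have no value there, so every MAN2 value under DR rests on DR1 and DR3. Leaf and storage root each had a marker above 0 in every library, though some levels were close to 0. Summed FPKM of 3 leaf markers (GAPB, At1g32060 and CHLH, all of chloroplasts) lay at 94.5 to 2381 in CK, at 60.6 to 112 in HT, at 177.5 to 691 in DR and at 12.95 to 145 in DH, with CHLH listed at 0 in 2 HT and 2 DH libraries and GAPB in 2 DH libraries. Those of 3 storage root markers (BMY1, SBE1 and AGPS1, all of starch) lay at 32.1 to 1563, 1.38 to 20.1, 6.3 to 44.0 and 0.5 to 27.0, with SBE1 at 0 in 1 HT and 1 DH library. In DH1, where MAN2 was highest, BMY1 was at 0.11, SBE1 at 0 and AGPS1 at 0.39, too low to show storage root RNA in that pool. DH1 was not alone in this, since the 3 markers were at 1.17, 0 and 0.21 in HT3 and at 0.17, 0.19 and 2.6 in HT1. In HT2 they were at 16.9, 0.08 and 3.12. The sum of the root markers was thus below every CK library in each HT and DH library, though single markers overlapped (AGPS1 was at 18.8 in DH3 and 7.12 in CK1); the study's tables named these genes for their change under stress, so their direction is not independent evidence. Their part in the MAN2 levels was not tested, and in pooled tissue fewer cells of a type and less RNA per cell cannot be told apart.

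MAN2 transcripts were listed at less than 1 FPKM for each copy in unstressed plants and at 10.8 or more in 7 of the 8 stressed libraries that list them. MSTRG.33887 was listed at an FPKM of 0 in CK1, 0 in CK2 and 0.88 in CK3. Under HT it was at 39.3, 0.86 and 20.9 in replicates 1 to 3, and under DR at 10.8 in DR1 and 34.8 in DR3. Under DH it was at 553, 13.1 and 76.8. HT2 alone of the stressed libraries lay within the range of CK, and the ranges of HT, DR and DH overlapped.

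The other copy, MSTRG.33886, had the same division of libraries. Its FPKM was 0.46, 0.95 and 0.48 in CK replicates 1 to 3. It was 164.8 in HT1, 0 in HT2 and 43.9 in HT3, and 26.9 in DR1 and 79.6 in DR3. Under DH it was 344, 14.2 and 88.0. All DR and DH libraries and HT1 and HT3 lay above every CK library, and HT2 lay below.

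**Figure D1:**
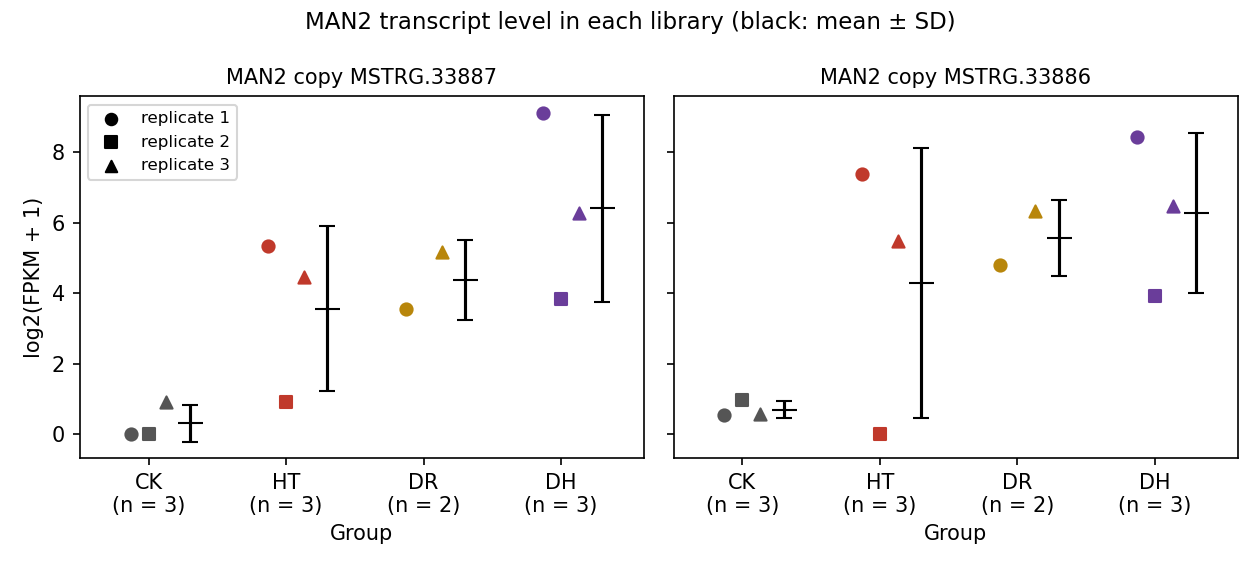
Level of each MAN2 copy, as log2(FPKM + 1), in every library that lists it; the horizontal axis gives the group, the marker shape the replicate number, and the black bar the mean and SD. The 3 CK libraries and HT2 sit below 1, and every other library sits at or above 3.56.

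The place of MAN2 among all genes of a library does not depend on how libraries are scaled to each other, though it does depend on how many genes a library lists above 0. In DH1 the copy MSTRG.33887 ranked 189 and MSTRG.33886 ranked 310 among 22706 genes with an FPKM above 0, which put them above 99.2% and 98.6% of those genes or level with them. Across the 3 DH libraries these percentiles lay from 89.0 to 99.2 for MSTRG.33887 and from 89.5 to 98.6 for MSTRG.33886. In HT1 and HT3 they were 89.5 and 85.8 for the first copy and 96.2 and 91.9 for the second, and in HT2 the first stood at 51.5 and the second was at 0. In DR1 and DR3 they were 81.1 and 93.9 for the first copy and 89.0 and 96.6 for the second. In CK, MSTRG.33886 stood at 53.1, 65.5 and 24.9, and MSTRG.33887 at 40.9 in CK3, the single CK library that lists it above 0. DH2, whose FPKM were the lowest of the DH group, still placed both copies at 89.0 and 89.5, above every CK library.

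Spread within a stress was wide. The highest DH library held 42.1 times the FPKM of the lowest for MSTRG.33887 and 24.3 times for MSTRG.33886. These FPKM are not adjusted for the share that the 10 most abundant genes took of a library's FPKM. That share was 57.0% in DH1, 89.7% in DH2 and 77.4% in DH3, and 34.7%, 71.8% and 70.8% in HT1 to HT3. Its part in the spread was not tested. On the log2(FPKM + 1) scale the SD between libraries was 2.35 under HT (n = 3), 1.13 under DR (n = 2) and 2.65 under DH (n = 3) for MSTRG.33887, against 0.53 in CK (n = 3). For MSTRG.33886 it was 3.83, 1.08, 2.26 and 0.24 in the same order. In HT and in DH, the libraries of 1 treatment lay further apart on that scale than the means of the 3 stresses did.

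The mean log2(FPKM + 1) rose in the order CK, HT, DR and DH for both copies. Means were 0.30, 3.56, 4.36 and 6.41 for MSTRG.33887 and 0.69, 4.29, 5.57 and 6.28 for MSTRG.33886. By mean FPKM the order differed, since HT stood at 69.6 ± 85.3 (SD, n = 3) and DR at 53.3 ± 37.2 (SD, n = 2) for MSTRG.33886. Against CK, the log2 fold change under DH, where 0.577% of all genes were called higher, was 6.10 (SE 1.22) and 5.58 (SE 1.37). In the comparisons with CK the 4 groups share the same 3 control libraries, so these values are not independent of one another.

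The level of MAN2 with a single stress was set beside CK in the same limma fit over 12295 genes, as a description, since the study's tables drew on these comparisons too. A call of higher needed a log2 fold change above 1 with an adjusted p below 0.05. In HT 0.569% of genes reached it and in DR 0.586% (0.781% with those called lower), and neither of the 2 copies did. Some alternative fits did call the copies. The study listed them from these comparisons, so nothing is read from a call or its absence. In HT the estimate for MSTRG.33887 was 3.26 on the log2 scale (SE 1.22, 95% interval 0.75 to 5.77). MSTRG.33886 had 3.596 in HT (SE 1.37, 95% interval 0.76 to 6.43). Both copies were higher than every CK library in 2 of 3 HT libraries.

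The heat estimates turned on HT2. Without HT2 they were 4.59 for MSTRG.33887 and 5.74 for MSTRG.33886, and without HT1 they were 2.37 and 2.05. Of the 9 other genes whose pattern was most like MAN2, given further on, HT2 lay above every CK library in 4, within their range in 3 and below them in 2. EDL3 (MSTRG.34959), an F-box protein gene, was at 13.4 there against 0.57 to 1.33 in CK, and ACX2 (G20012), an acyl-CoA oxidase of peroxisomes, at 10.1 against 0.88 to 4.96. On the other side, the galactinol synthase gene GOLS2 (G19634) was at 0.31 against 0.98 to 2.16. This comparison was chosen after the values were seen.

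Drought alone, in the 2 libraries that list the copies, gave larger estimates with wider errors. For MSTRG.33887 the DR estimate was 4.06 on the log2 scale (SE 1.36, 95% interval 1.25 to 6.87) and for MSTRG.33886 it was 4.88 (SE 1.53, 95% interval 1.71 to 8.04). Both DR libraries lay above every CK library, the lower of them 12.3 times the highest CK value for the first copy and 28.4 times for the second. Leaving out HT2 cannot move the DR estimates, which use the means of DR and CK alone, and for MSTRG.33886 it lowered the SE to 1.20. With the missing value of DR2 set to 0, the lowest it could be, the log2 fold changes were 2.60 and 3.02.

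Taken as a mean of both single stresses, HT and DR together had log2 fold changes over CK of 3.66 for MSTRG.33887 (SE 1.10) and 4.24 for MSTRG.33886 (SE 1.24), where 0.74% of genes were called higher. Of the 5 single-stress libraries that list the copies, 4 lay above every CK library. The intervals at 95% ran from 1.395 to 5.92 and from 1.68 to 6.79, and the median log2 change of all genes tested was 0.20. Without HT2 the log2 fold changes of the copies were 4.32 and 5.31.

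**Figure D2:**
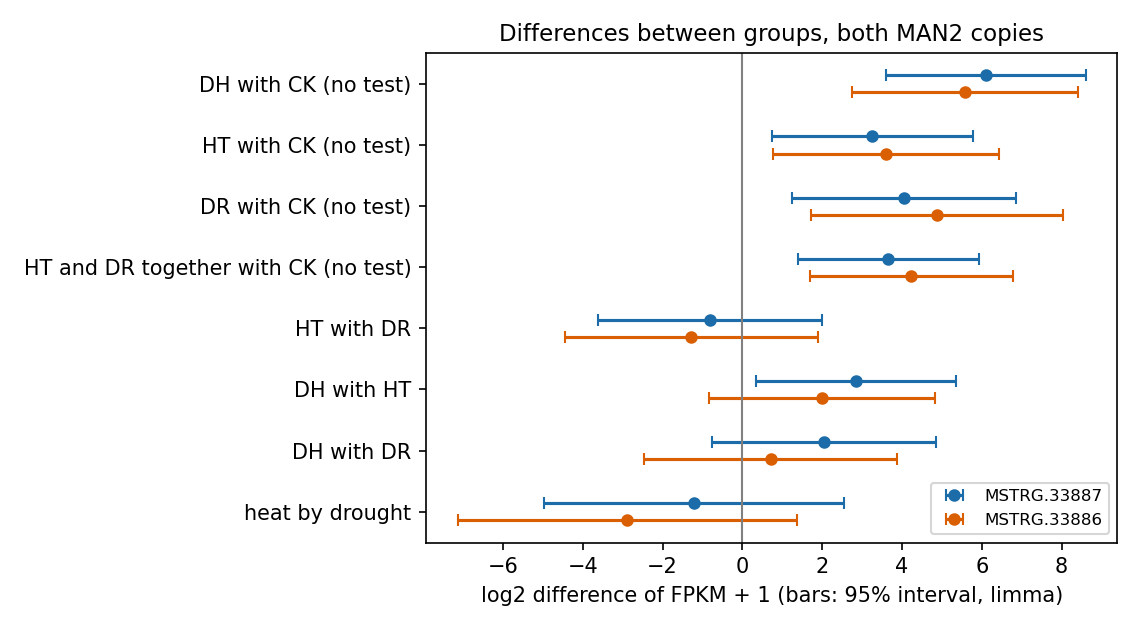
Log2 differences in FPKM + 1 between groups for both MAN2 copies, with 95% intervals from limma. The differences with CK, from which the genes were listed, are descriptions and are marked as having no test. Heat by drought is DH less HT less DR plus CK. Differences with CK lie between 3.26 and 6.10, and among the comparisons of stresses with each other the intervals include 0 except for MSTRG.33887 in DH with HT.

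Heat and drought alone were also compared with each other, in libraries that took part in listing the genes through their comparisons with CK. HT less DR gave log2 differences of -0.80 for MSTRG.33887 (95% interval -3.61 to 2.00, adjusted p = 0.89, limma) and -1.28 for MSTRG.33886 (-4.45 to 1.89, adjusted p = 0.83), where 0.0651% of genes were called (0.0163% higher and 0.0488% lower). Both intervals span changes of several fold either way, and without HT2 the differences were 0.53 and 0.86.

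Adding the second stress to the first gave higher estimates that did not pass. DH exceeded HT by 2.84 on the log2 scale for MSTRG.33887 (SE 1.22, unadjusted p = 0.028, adjusted p = 0.76, limma) and by 1.99 for MSTRG.33886 (SE 1.37, unadjusted p = 0.16, adjusted p = 0.76); the second became -0.16 without HT2. No gene (0 of 12295, or 0%) was called in that comparison by limma, and 597 had an unadjusted p under 0.05. DH exceeded DR by 2.04 (95% interval -0.76 to 4.85, adjusted p = 1.0) and 0.71 (-2.46 to 3.87, adjusted p = 1.0), with DR1 and DR3 alone, where 0.0407% of genes were called. Without DH1 the differences from DR were 0.69 and -0.37. The median log2 change of all genes tested was -0.65 in DH with HT and -0.40 in DH with DR. These comparisons use libraries from which the genes were listed, and a choice of genes high in DH favours a higher DH.

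The test of heat by drought, DH less HT less DR plus CK, asks whether both stresses together differ from the sum of each. It gave -1.21 for MSTRG.33887 (SE 1.82, adjusted p = 0.91, limma) and -2.89 for MSTRG.33886 (SE 2.06, adjusted p = 0.90), with 95% intervals of -4.98 to 2.55 and -7.14 to 1.36. The median of all genes tested was -0.73. By limma 0 genes were called there (0%), and 647 had an unadjusted p under 0.05. For neither copy was a difference between the combined stress and the single ones shown by these tests. The contrast is built from the differences with CK for which the study listed the genes. With 0 genes called among all tested, a missing call says little about MAN2.

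The 2 copies followed each other across libraries while their proportions varied. Over the 11 libraries that list them, log2(FPKM + 1) of one copy had a Pearson's r of 0.956 and a Spearman's rho of 0.929 with the other, and over the 8 stressed libraries 0.919 and 0.952. These are descriptions across libraries in 4 groups that share their scaling and possibly reads. MSTRG.33886 made up 80.7% of the summed FPKM of both copies in HT1, 67.8% in HT3, 71.4% in DR1 and 69.6% in DR3. Under DH it made up 38.3%, 51.9% and 53.4% in replicates 1 to 3. MSTRG.33886 was thus the more abundant copy, by 2.1 to 4.19 times, in the 4 single-stress libraries with more than 1 FPKM, and close to or below the other under DH. The range of HT overlapped that of DH through HT2, where MSTRG.33886 was listed at 0 and MSTRG.33887 at 0.86, and CK held 100%, 100% and 35.3% of a sum that did not exceed 1.36. This comparison was made after the values were seen and was not tested.

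**Figure D3:**
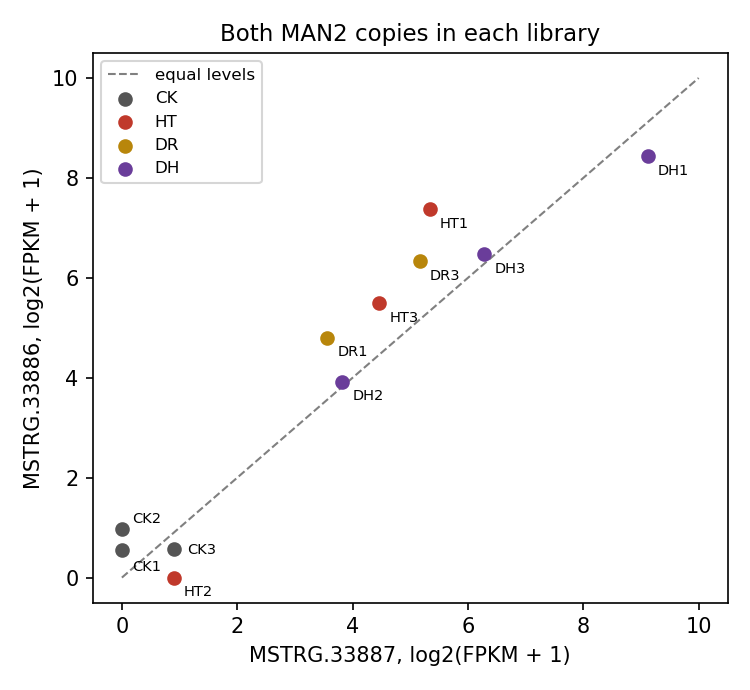
Levels of the 2 MAN2 copies against each other, both axes as log2(FPKM + 1), 1 point per library, with a dashed line of equal levels. HT1, HT3, DR1 and DR3 lie above the line, DH2 and DH3 lie close to it, and DH1 lies below it at 9.11 and 8.43.

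Summed over both copies, MAN2 stood at 0.46, 0.95 and 1.36 FPKM in CK, 204, 0.86 and 64.8 in HT, 37.7 and 114 in DR1 and DR3, and 897, 27.3 and 164.8 in the 3 DH libraries. The lowest DH library held 20.1 times the highest CK sum, and the lower DR library 27.8 times.

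Genes of mannan synthesis and of the use of GDP-mannose had estimates of the opposite sign to MAN2. Of 5 listed genes of mannan and GDP-mannose, all 5 were tested and had negative log2 fold changes under HT and under DR. Their medians were -1.35 and -1.13, where the medians of all genes tested were 0.30 and 0.07. In either, 0 of 5 passed, where 1.04% of all genes did in HT and 0.781% in DR. The glucomannan synthase CSLA9 (G27583) was at an FPKM of 15.5, 4.3 and 4.1 in CK, then 2.1, 0.5 and 1.5 in HT, 1.13, 0.29 and 0 in DR, and 0.27, 0 and 0 in DH. The CK libraries did not overlap the stressed ones. Its log2 fold change was -2.82 (SE 0.73) under DH, the contrast in which the study listed it. The VTC2 copies G15160 and G16532, GDP-L-galactose phosphorylases at the entry to ascorbate, were at 7.68 to 75.5 and 11.99 to 102 in CK, and at 0.5 to 5.05 and 0.82 to 5.71 under DH. In HT3 they reached 311.5 and 81.7, so that HT and CK overlapped. The GDP-mannose epimerase At5g28840 (G165) was at 5.0 to 48.4 in CK, and its highest level was 2.18 in HT, 19.3 in DR and 1.56 in DH.

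Other hydrolases of the wall, beta-xylosidases, beta-glucosidases and beta-galactosidases that release single sugars, mostly had estimates of the same sign as MAN2. Of 9 listed genes 8 were tested. Under HT 7 had positive changes (median 2.76, 0 called) and under DR 7 (median 1.71, 1 called, gluA). Of all genes tested, 0.569% and 0.586% were called higher there. The study's tables list these genes for changes in these same samples, so the p-values given for genes of the lists are descriptions. gluA (G9941), a beta-glucosidase, was at 1.26, 1.01 and 0.2 FPKM in CK, then 33.0, 3.32 and 22.5 in HT, 29.3, 71.8 and 283 in DR, and 666, 20.6 and 85.4 in DH. No stressed library overlapped CK. It rose in DR by 5.60 on the log2 scale (SE 1.16, adjusted p = 0.017, limma), a call lost without CK2 (adjusted p = 0.066), CK3 (0.095), DR2 (0.056) or DR3 (0.21), and in HT and DR together with 4.35 (adjusted p = 0.024), a call lost without CK2, CK3, HT1, HT3 or DR3 (adjusted p from 0.056 to 0.15). The beta-xylosidase BXL1 (G32815) was listed at 0 in each of the CK libraries, with 119, 0.48 and 154.02 in HT and 3.72 to 5.97 in DR. One copy of the beta-glucosidase BACOVA_02659, G35534, was on the other side, at 48.1, 162 and 164 in CK and 8.75 to 9.55 under DH.

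Genes that build or cut cellulose had negative estimates with each single stress. Of 8 listed genes of cellulose and endoglucanases 7 were tested, and all 7 had negative changes under HT (median -2.40, 1 called lower, where 0.472% of all genes were) and under DR (median -2.71, 0 called, where 0.195% of all genes were called lower). The endoglucanase At1g64390 (G31904) fell under HT, with 44.4, 101.5 and 314 FPKM in CK and 0.59, 8.09 and 0.31 under HT (log2 fold change -5.41, SE 0.99, adjusted p = 0.0092, limma). That call was lost without HT1 (-5.04, adjusted p = 0.067). In HT and DR together it fell by 4.15 on the log2 scale (adjusted p = 0.012), which was lost without CK2 (-4.23, adjusted p = 0.065) or CK3 (-3.42, adjusted p = 0.11). The endoglucanase KOR (G15032), which acts with cellulose synthase, was at 98.1 to 259 in CK and 6.11 to 13.4 under DH, and At2g32990 (MSTRG.39994) at 6.17 to 24.7 and 0 to 0.73. Another endoglucanase, At4g39010 (G24635), was at 6.39 to 111 in CK and reached 9.25 in DR1, so that DR overlapped CK, while HT and DH stayed at or below 2.55.

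All 10 listed expansins and xyloglucan transferases, which loosen or re-join wall polymers, were tested and had negative changes under HT (median -2.14) and DR (median -1.77). In either, 0 were called, where 0.472% of all genes were called lower in HT and 0.195% in DR. XTH1 (G230) was called lower in HT and DR together (-2.21, SE 0.54, adjusted p = 0.037, limma), where 0.643% of genes were. It was listed at 0 in HT1, HT2, HT3, DR1 and DR2, and it passed the filter on low values through its 3 CK libraries alone, so it had to differ from CK to be tested at all and could not be fitted without any one of them. The call was lost without HT1, HT3, any DR library, DH1 or DH3 (-2.35 to -2.15, adjusted p from 0.054 to 0.098). The most abundant of the list, XTH32 (G9843), was at 96.9 to 1841 in CK, at 13.9 to 140 in HT, at 49.0 to 430 in DR and at 5.63 to 129 in DH, and its second copy G26672 at 5.94 to 62.0 in CK and 0.6 to 1.51 under DH. The xyloglucan transferase XTH9 (G22417) was at 17.41 to 77.3 in CK and overlapped it in HT1 (45.9) and DR2 (24.4), and the expansin EXPA2 (G7604) ranged from 0.41 to 98.0 within CK itself. The 2 listed pectin methylesterases parted: PMEU1 (G41995) was at 74.7 to 116 in CK and 5.29 to 7.36 under DH, and PME13 (MSTRG.41156) was listed at 0 in CK and at 71.5, 0.97 and 12.1 under DH.

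In all, 8 of the 34 listed genes, 32 of which were tested, passed in at least 1 comparison, DH with CK included, where 2.32% of all genes tested passed in at least 1 of the 8. In DH with CK alone 1 was higher and 6 were lower, against 1.55% of all genes called. The lists were drawn from the study's tables of genes that changed in these same samples. The counts, directions and p-values of their genes are therefore not independent evidence.

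**Figure D4:**
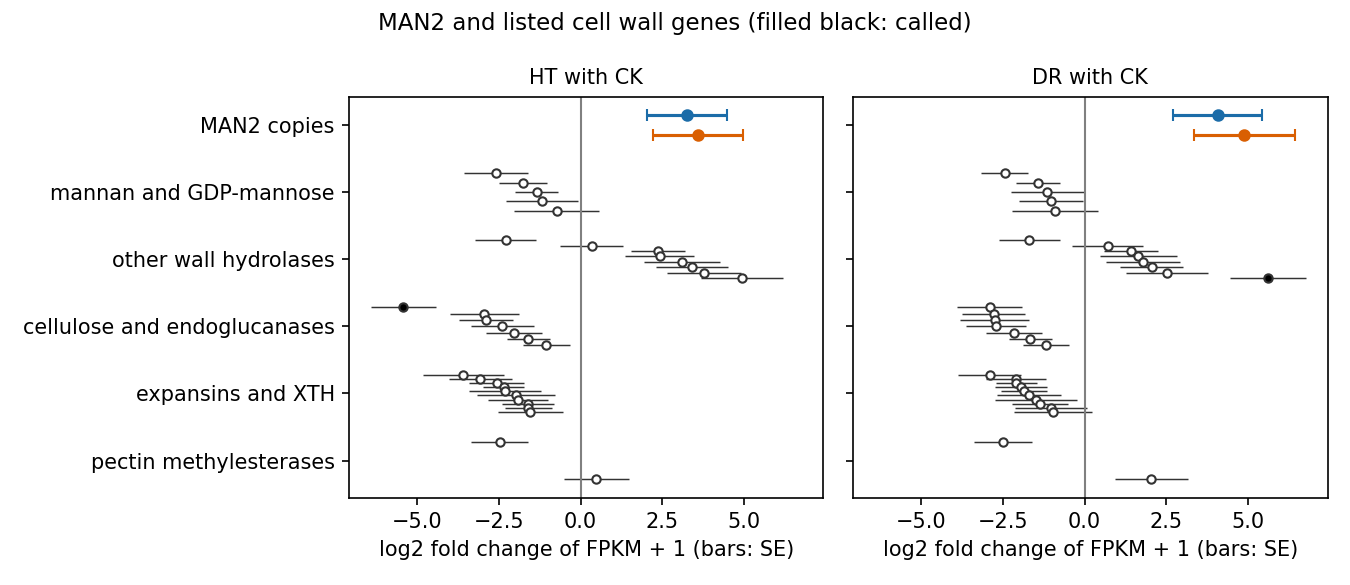
Log2 fold changes of FPKM + 1 over CK, with SE, under HT (left) and DR (right), for both MAN2 copies (MSTRG.33887 blue, MSTRG.33886 orange, neither called) and each tested gene of 5 lists; black points passed and open points did not. The MAN2 copies lie at 3.26 to 4.88, 7 of the 8 other wall hydrolases lie above 0, and the genes of mannan precursors, cellulose, and expansins and XTH lie below 0.

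Genes with a symbol whose pattern was most like MAN2, ranked by Pearson's r of log2(FPKM + 1) over the 11 libraries among 12294 genes, were partly the same for both copies. For MSTRG.33887 they were WRKY6 (MSTRG.26557, a transcription factor, r = 0.957), ACX2 (G20012, 0.957), the other copy (0.956), gluA (0.943) and EDL3 (MSTRG.34959, 0.941). For MSTRG.33886 they were the other copy (0.956), ACX2 (0.948), EDL3 (0.925), gluA (0.919) and GOLS2 (G19634, a galactinol synthase of raffinose synthesis, 0.917). The unnamed genes G33231 (0.968) and G739 (0.984) ranked first for the first and the second copy. These r describe libraries in 4 groups that share their scaling, and carry no test.

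ACX2 had 2.92, 4.96 and 0.88 FPKM in CK, then 108, 10.1 and 52.7 in HT, 32.9, 26.1 and 72.1 in DR, and 450, 24.4 and 149 in DH, so it shared with MAN2 the high DH1 and the low HT2. WRKY6 was at 0 to 0.41 in CK and at 67.9, 2.31 and 10.4 under DH, and was at 0.07 in HT2. EDL3 reached 3374 in DH1, 97.35 in DH2 and 741 in DH3, the same order of the 3 libraries as in both MAN2 copies. G739 was at 36.1 to 53.9 in CK and at 34.2 in HT2, against 733 or more in HT1, HT3 and each DR library, and 12493, 361 and 1757 under DH.

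**Figure D5:**
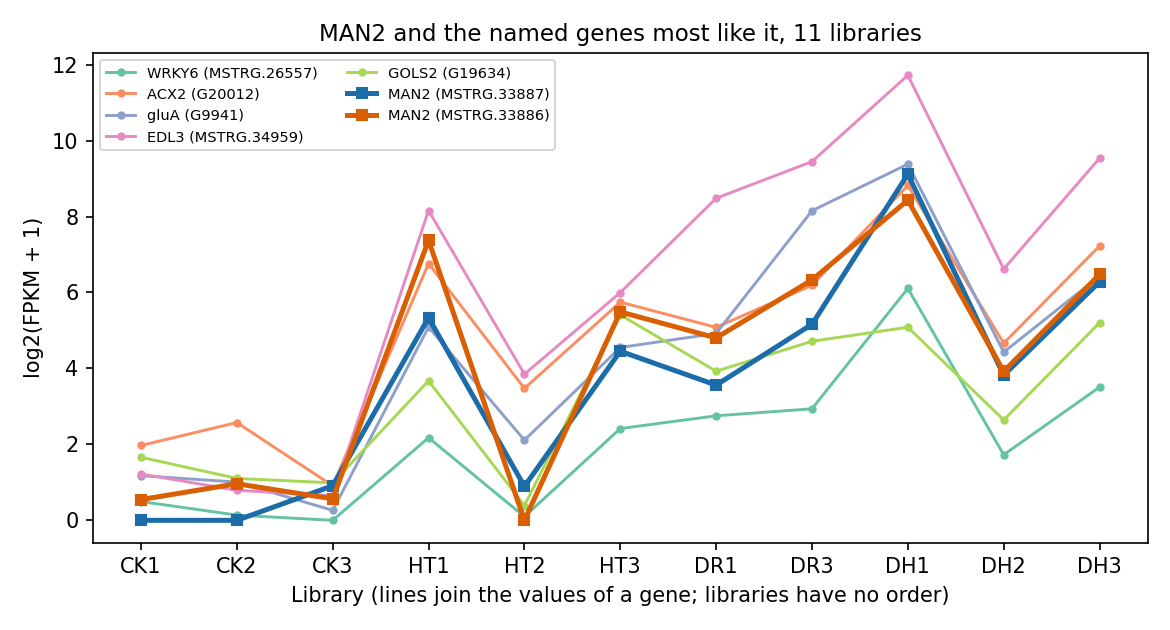
Log2(FPKM + 1) of both MAN2 copies (thick lines) and of the named genes most like them over the 11 libraries that list MAN2; lines join the values of a gene and imply no order of libraries. All of them are high in DH1 and lower in DH2, and HT2 is the lowest HT library for each.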

How the data were processed

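RNA-seq libraries of pooled leaves and storage roots, 3 for each of CK, HT, DR and DH, were read as the authors deposited them, 1 FPKM value per gene and library. The authors trimmed the reads (cutadapt 1.9 in the labels, Trimmomatic in the methods), aligned them with HISAT2 (2.0.4) to the reference genome they cite and quantified them with StringTie (1.3.4d). Counts and gene lengths are not used here, so the counting error of an FPKM is unknown.

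Titles gave the groups. The two-sided moderated test of limma (3.58.1, intensity trend, R 4.3.3) was fitted to log2(FPKM + 1), all libraries in 1 fit of 4 group means. The 12295 genes tested reached 1 FPKM in 3 or more libraries; 1087 of them have no value in DR2 and were fitted on the other 11. The pseudocount of 1 makes fold changes of low genes smaller. A call needed a log2 change larger than 1 in size and a Benjamini-Hochberg adjusted p below 0.05. The fit was tested on simulated data. Summaries used Python (3.11.15), pandas (2.3.3) and numpy (2.4.6).

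The members, gene lists, comparisons and alternatives were chosen with earlier results of these data known, and no p is given for the members against CK. Text names the copies, list genes called in any comparison or among the 3 most abundant of their list, and, by Pearson's r, the 5 named and up to 2 unnamed genes most like each copy. The 228 symbols come from the study's tables. Alternatives were pseudocounts of 0.1 and 0.01, no filter or one of 6 libraries, upper-quartile and quantile scaling, scaling without the 10 most abundant genes, only the groups compared, a replicate block, array weights, DR2 taken as 0, each library left out, and CK3, HT2 and DH2 left out together. For their own tests the authors used DESeq2 (edgeR in the labels); no count model was run here.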

Additional observations from a re-analysis of the deposited data

How the results depend on the processing

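Of 24 alternatives, all left both copies higher than CK under HT, DR, DH and the mean of HT and DR. Calls appeared in HT with CK when HT2 alone was left out (4.59 for MSTRG.33887 and 5.74 for MSTRG.33886). They also appeared there when CK3, HT2 and DH2 were left out together (4.89 and 5.68). In DR with CK they appeared with array weights (4.65 and 5.09) and, for MSTRG.33886, with only the groups compared or without HT2 (4.88 in both). In HT and DR together both copies were called without HT2 alone (4.32 and 5.31). Calls also appeared there for MSTRG.33887 with a pseudocount of 0.1 (5.97) or 0.01 (8.21), array weights (4.17) and the 3 libraries left out (4.63). For MSTRG.33886 they appeared with array weights (4.49) and the 3 left out (5.24). All these calls are descriptions, since the study listed the copies from these comparisons. DH with CK moved for MSTRG.33887 to 8.59 and 10.85 at the lower pseudocounts, which widen the distance from the CK libraries listed at 0. HT with DR changed sign with the 3 left out (0.53 and 0.86), with DR2 taken as 0 (0.65 and 0.58) and, for MSTRG.33887, with the replicate block (0.12). For MSTRG.33887 heat by drought changed sign with DR2 taken as 0 (0.24). It was -0.03 with upper-quartile scaling, -0.10 with quantile scaling and -0.16 without the 10 most abundant genes. At the lower pseudocounts it was -3.355 and -5.56. In the same 3 scalings DH with HT was 3.83, 3.73 and 3.57 for MSTRG.33887 and 2.98, 2.88 and 2.76 for MSTRG.33886. Beyond these, the cause was not tested.

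With 1 library left out, MSTRG.33887 ranged from 2.37 to 4.59 in HT with CK, 3.26 to 4.86 in DR with CK, 3.21 to 4.32 in HT and DR together, -1.69 to 0.53 in HT with DR, 1.49 to 4.14 in DH with HT, 0.69 to 3.34 in DH with DR, -2.57 to 0.079 in heat by drought and 4.75 to 7.39 in DH with CK. MSTRG.33886 ranged from 2.05 to 5.74, 4.11 to 5.64, 3.46 to 5.31, -2.82 to 0.86, -0.16 to 3.53, -0.37 to 1.89, -5.03 to -1.34 and 4.51 to 6.76 in the same order. Where DR keeps 1 library, it is assumed to vary like the others.

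The list genes called in any comparison, 8 in the reported fit, numbered 0 without the filter, 13 with quantile scaling, 2 with only the groups compared, 15 with the replicate block, 20 with array weights, 4 with DR2 taken as 0, and 2 to 13 with 1 library left out. Without the filter gluA was not called in DR (adjusted p = 0.14, limma) nor At1g64390 in HT (0.073), and with only the groups compared At1g64390 was not (0.080).

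The labels do not say what a replicate number marks, and pairing was not assumed: 10 of 18 same-numbered pairs had a correlation over 0.1 (-0.12 to 0.60), though 8 of 12 libraries were closest to one with their own number, a hint of shared deviations. Pairs of different numbers ranged lower, from -0.66 (CK1 with DR2) to 0.50 (CK3 with DR2). The block raised the genes called in HT with CK from 70 higher and 58 lower to 282 and 137. With the replicate as a block neither copy was called (HT with CK 3.26 and 3.596, DR with CK 3.13 and 3.81).

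Upper-quartile scaling moved the median change of all genes from 0.30 to -0.09 under HT. Without counts, the error of values below 1 FPKM, as in CK and HT2, cannot be given.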
